A study of Saccharomyces cerevisiae with 56 samples.

Results

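The effect of the extension named N on abundance was examined for PDZ3, the PDZ domain of PSD-95 nearest its C terminus, in molecules that already carried the extension named C. Construct NC, the domain with both extensions, was set against construct C, the domain with the C extension only, in the abundance assay. A variant belonged to the comparison when it held 1 or 2 amino acid substitutions, no stop codon and no placeholder error, and was measured in both constructs. 43716 variants met this rule, 1149 with a single substitution and 42567 with 2, out of 384688 entries for all constructs and assays of the series. They covered the 66 residues from R312 to I377, numbered as in full-length PSD-95. At least 10 single substitutions were measured in both constructs at 61 of these positions. G319, D332, G351, G356 and N363 had none.

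PDZ domains are small folds that hold the C-terminal end of a partner protein in a groove between the second strand and the second helix, and a loop that leads into the second strand binds the terminal carboxylate. PSD-95, a scaffold protein of excitatory synapses, has several of them, and sequence outside the conserved fold of PDZ3 is known to affect its ligand binding. In a protein-fragment complementation assay for abundance, the domain is fused to a piece of the enzyme dihydrofolate reductase, and yeast grows the faster in the drug methotrexate the more soluble protein the cell holds. Substitutions that unfold a domain are known to lower growth in such an assay.

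All libraries came from Saccharomyces cerevisiae strain BY4742, a haploid laboratory yeast, and the domain was made from a plasmid in each. Both groups here were grown for 5 generations at 30 °C in 400 mL of methotrexate medium from a starting optical density of 0.05. In this assay 3 cultures of C and 3 of NC were sequenced before and after selection, which made 12 of the 56 libraries in the series, and each construct had a wild-type library beside them. The labels do not give the sequences of N and C. They mark the C libraries with a3 and the NC libraries with Na3.

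The deposited table held 1 merged fitness score and 1 standard error per variant and construct. Values of single cultures were not analysed here, so the spread between cultures enters only through the authors' error and the sequencing depth is unknown. Each score was scaled within its construct so that the wild type stood at 0 and the median nonsense variant at -1. The median nonsense variant had a deposited score of -1.23 in C and -1.07 in NC. Nonsense variants did not all score alike: those before G324 had a scaled median of -0.828 in C and -0.779 in NC. In growth rate, with a time unit not stated, the step from wild type to median nonsense variant was 0.138 in C and 0.136 in NC, and the wild types grew at 0.132 (C) and 0.137 (NC). The median error of a single substitution was 0.0187 (C) and 0.0154 (NC) on the scaled score, and that of a double substitution 0.137 and 0.106. Synonymous variants leave the protein unchanged. They lay past the threshold in 6.64% of cases in C (19 of 286) and 5.51% in NC (15 of 272), and those past it were all above the wild type. The median synonymous variant stood at -0.0159 in C and 0.00508 in NC on the scaled score. Scores without a change of the protein thus also lay somewhat higher in NC. The spread of nonsense variants at or after G345 exceeded their errors by a factor of 3.18 in C and 2.57 in NC, and the counts of calls below rest on those errors.

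With N present, substitutions of the domain cost less abundance. The mean scaled score of the 1149 single substitutions was -0.173 in C and -0.0813 in NC, a difference of 0.0921 ± 0.00455 (SE; two-sided normal test over the authors' errors, n = 1149 substitutions, p = 3.15e-91). With the median synonymous variant in place of the wild type, the mean difference was 0.0741. The median substitution moved less, from -0.0619 to -0.0253, with a median difference of 0.0331. 74.5% of the substitutions scored higher in NC than in C. Tested one by one, at a Benjamini-Hochberg adjusted p of 0.05, 394 were higher in NC (34.3%) and 14 lower (1.22%). With errors widened to the spread of the nonsense variants these counts were 214 and 1.

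**Figure D1:**
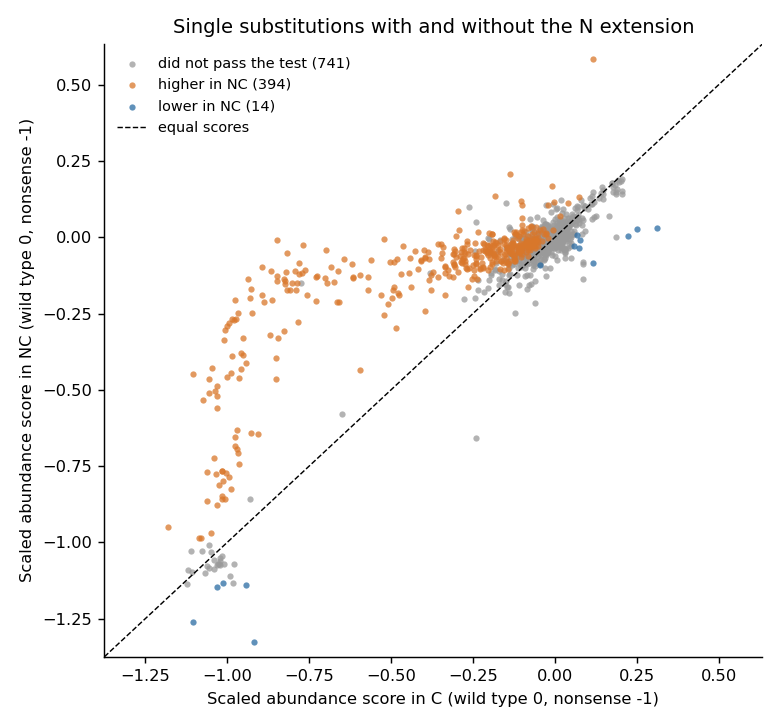
Scaled abundance score of each of the 1149 single substitutions in C (horizontal axis) and in NC (vertical axis), with the wild type at 0 and the median nonsense variant at -1. Points are coloured by the test of the difference: 394 higher in NC, 14 lower in NC. Many substitutions between -1 and -0.5 in C sit above -0.25 in NC, and a group near -1 stays near the line of equal scores.

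Fewer substitutions were strongly harmful in NC. 145 substitutions (12.6%) scored below -0.5 in C and 63 (5.48%) did so in NC. Of the 63, 62 were also below -0.5 in C. The one exception, S320R, went from -0.239 to -0.657 with errors of 0.207 and 0.318, and did not pass the test (p = 0.466, adjusted over n = 1149 substitutions). 55 substitutions went from below -0.5 in C to above -0.25 in NC. Against the wild type of the same construct, 595 substitutions were below it in C (51.8%) and 466 in NC (40.6%). Above it were 74 in C, a share of 6.44%, and 100 in NC, a share of 8.7%. 153 were below the wild type in C and on neither side of the threshold in NC, and for 83 of these the difference itself passed. 32 went the other way, from neither side in C to below in NC, and for none of them did the difference pass.

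The variants' scores in the domain with no extension, which shares no library with C or NC, gave an independent ranking by severity. The 173 single substitutions that scored -1 or less in PDZ3 alone had a median of -0.849 in C and -0.206 in NC. The 108 between -1 and -0.75 had medians of -0.237 and -0.0578, and the 96 between -0.75 and -0.5 had medians of -0.113 and -0.0355. The median difference between NC and C shrank along this order, from 0.289 to 0.164 and 0.0700, and was 0.00487 for the 378 substitutions within 0.1 of the wild type. Double substitutions followed the same order. The 12512 that scored -1 or less in PDZ3 alone had medians of -0.935 in C and -0.503 in NC, and 79.4% of them were below -0.5 in C against 50.1% in NC. For the single substitutions of that class these shares were 67.6% and 31.8%.

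**Figure D2:**
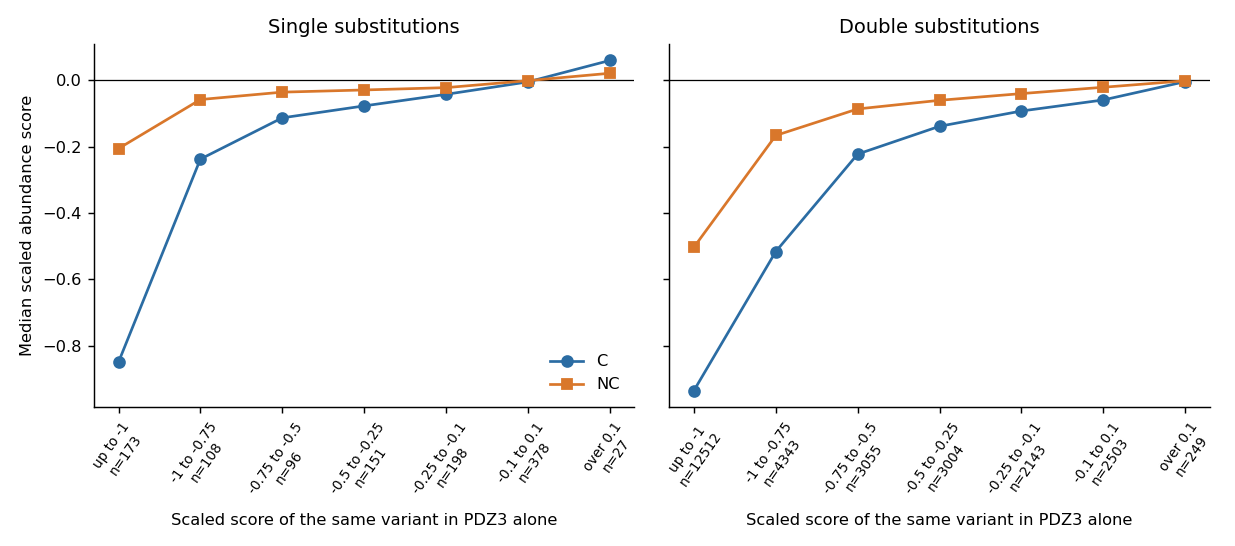
Median scaled abundance score in C and in NC of single substitutions (left) and double substitutions (right), binned by the score of the same variant in PDZ3 alone, with the number of variants under each bin. The distance between NC and C is widest in the lowest bins: for single substitutions at -1 or less the medians are -0.849 and -0.206.

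Averaged over the substitutions of each position, 44 of 61 positions were higher in NC (72.1%) and 1 lower (1.64%), with a median difference of 0.0576. With the median synonymous variant in place of the wild type, 29 positions were higher. The largest was at G335, in the loop between the second strand and the next: its mean went from -0.426 to -0.0826, a difference of 0.343 ± 0.00940. G324, the second glycine of the GLGF motif that forms the carboxylate-binding loop, followed with 0.335 ± 0.00940 (-0.524 to -0.189), and all of its 19 substitutions passed as higher. Next came hydrophobic residues: I327 with 0.296, I338 with 0.273, I341 with 0.248, A375 with 0.247, L367 with 0.235, L353 with 0.232 and F325, the last residue of GLGF, with 0.229. I336 (0.218), I316 (0.217) and F337 (0.194) completed the 12 largest. Their standard errors lay between 0.00634 and 0.0207, each far below the difference it belongs to.

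**Figure D3:**
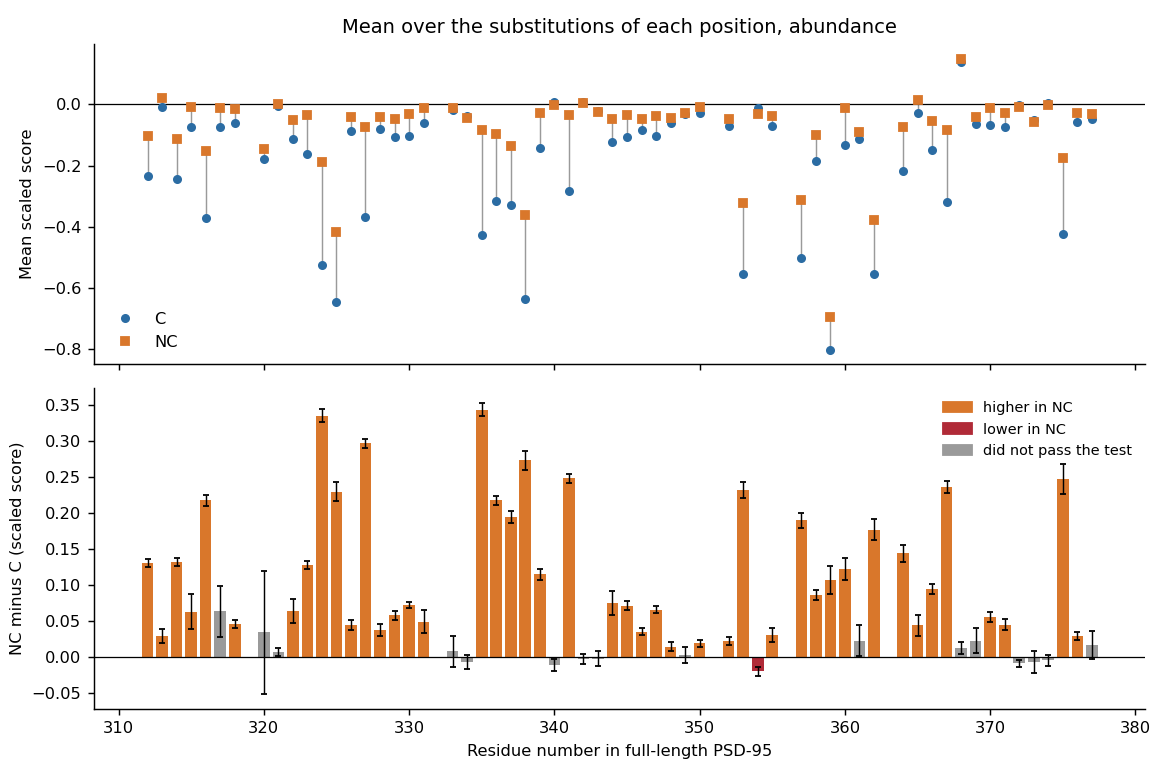
Top, mean scaled abundance score over the substitutions of each position in C (circles) and NC (squares) against the residue number. Bottom, the difference NC minus C with its standard error, coloured by the test: 44 positions were higher in NC and 1 lower. The tallest bars, 0.343 and 0.335, stand at G335 and G324.

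The substitutions of G335 varied widely in C. They ran there from -1.01 to -0.0329 with a median of -0.303, and 7 of 19 were below -0.5. In NC they ran from -0.304 to 0.00516 with a median of -0.0442, and none was below -0.5. G335W went from -0.9996 to -0.291 and G335L from -0.824 to -0.153. G335P, with -0.0329 and -0.0163, was near the wild type in both and did not pass the test of the difference. The charged G335D and G335E went from -0.303 and -0.304 in C to 0.00516 and -0.0442.

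I327, in the second strand next to the bound peptide, showed the same kind of split within 1 position. I327T, I327V, I327Y and I327F lay between -0.00950 and 0.0102 in C and between -0.00252 and 0.0183 in NC. The lysine I327K went from -0.976 to -0.207, I327P from -0.849 to -0.127 and I327D from -0.995 to -0.280. None of the 7 substitutions of I327 that were below -0.5 in C stayed there in NC. I341, in the third strand, likewise went from 3 substitutions below -0.5 to none, and I341W from -0.848 to -0.143.

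L367 and L353 had the largest single differences. L367N rose from -0.849 to -0.00956, a difference of 0.840 ± 0.0311 (p = 4.14e-159, adjusted over n = 1149 substitutions), and ended within its error of the wild type. L367R (-0.937 to -0.136), L367E (-0.927 to -0.171) and L367K (-0.770 to -0.0236) rose by 0.802, 0.756 and 0.746. L367D and L367P stayed at the level of nonsense variants, L367D with -0.992 in C and -1.11 in NC, L367P with -0.978 and -1.07, and neither difference passed. Aspartate and glutamate, which carry the same charge, thus ended far apart at this residue: L367E reached -0.171 and L367D -1.11. At L353, L353G (-0.895 to -0.0972) and L353Y (-0.867 to -0.111) rose by 0.797 and 0.756, while the charged L353E (-1.03 to -1.07), L353R (-1.07 to -1.10) and L353D (-1.04 to -1.06) did not pass. The remaining large single rises were I327K (0.769), L360G (0.768), V362G (0.733) and I327P (0.722).

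G324 and F325, in the carboxylate-binding loop, both rose in mean, but the ranges of their substitutions changed differently. At G324 every substitution was below the wild type in C and in NC, but the range narrowed, from between -0.988 and -0.163 in C to between -0.446 and -0.0376 in NC. The lowest, G324V, went from -0.988 to -0.446 and G324W from -0.869 to -0.320, while G324P, the mildest in C, went from -0.163 to -0.0764. At F325 the substitutions stayed split. F325L (-0.0178 and -0.00774) and F325M (-0.0401 and -0.0261) were near the wild type in both constructs. F325S rose from -1.01 to -0.337 and F325Y from -0.694 to -0.149. F325R (-1.08 to -1.03) did not pass, and F325K and F325N rose only to -0.984 and -0.858.

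In the strands of the core the order of side chains differed between positions. At I338, in strand 3, aliphatic and small residues such as I338V (0.0144 and 0.00806) and I338C (-0.00133 and 0.0145) were near the wild type in both constructs. I338G rose from -0.967 to -0.247, I338P from -0.864 to -0.206 and I338F from -0.758 to -0.188. The charged I338D, I338E, I338K and I338R also passed as higher, yet ended between -0.786 and -0.742. I336, 2 residues before it, recovered further, and its lowest substitution in NC was I336D at -0.461. I336E went from -0.978 to -0.272 and I336K from -0.810 to -0.173. At F337, between them, F337N went from -0.617 to -0.131, and F337P (-0.990 to -0.825) and F337D (-0.976 to -0.683) remained low. At I316, in strand 1, I316N went from -0.828 to -0.138 and I316E from -0.802 to -0.149, and I316P (-1.09 to -0.986) and I316D (-1.02 to -0.765) remained low.

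D357 was the charged residue with the largest difference, 0.190 ± 0.0104, and 15 of its 19 substitutions passed as higher. D357Q and D357S were mild in C (-0.136 and -0.141) and milder in NC (-0.0520 and -0.0766). D357L rose from -0.827 to -0.308 and D357N from -0.665 to -0.213. The basic D357K (-1.05 to -1.03) and D357R (-1.02 to -1.06) stayed at the nonsense level. At G364 the branched G364V (-0.782 to -0.0838) and G364I (-0.787 to -0.148) rose, while G364D lay above the wild type in both (0.0748 and 0.0582).

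I359 had the lowest mean of all positions in both constructs. Its mean went from -0.803 to -0.696, a difference of 0.107 ± 0.0195, and 86.7% of the deficit was kept. 15 of its 19 substitutions were below -0.5 in C and 12 in NC. I359F (-0.824 to -0.142), I359A (-0.761 to -0.107) and I359T (-0.986 to -0.388) rose, whereas polar and charged substitutions such as I359N (-1.02 to -1.05) and I359E (-1.02 to -1.07) lay near the nonsense level in both constructs. Over the substitutions, the median difference at I359 did not pass the test. V362, in the same stretch around the fourth strand, kept 68.2% of its deficit (-0.555 to -0.378). It had 3 proline or charged substitutions, V362P, V362R and V362D, that scored between -1.13 and -1.15 in NC. F325 kept 64.6% (-0.646 to -0.417). 8 of its substitutions stayed below -0.5, among them F325D, F325K and F325P.

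Of the 63 substitutions below -0.5 in NC, 62 of which were so in C too, 12 were at I359, 8 each at F325 and I338, 7 at L353, 6 at V362 and 4 at D357. The other 18 were spread over 12 positions. By the new residue, the 14 substitutions to proline and 28 to charged residues made up most of them. Substitutions to aliphatic or aromatic residues went from 34 below -0.5 in C to 4 in NC, those to polar residues from 30 to 13, those to glycine from 11 to 4, those to charged residues from 48 to 28 and those to proline from 22 to 14. In means, substitutions to glycine differed most between constructs, by 0.163 ± 0.00684 (-0.244 to -0.0807, n = 52). Those to proline differed by 0.135 ± 0.0106 (-0.421 to -0.286, n = 59) and those to polar residues least, by 0.0698 ± 0.00476 (-0.127 to -0.0574).

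By place in the fold, the positions of strand 3 had the largest median difference of the stretches along the chain, 0.194, with 5 of 7 higher, against 44 of 61 (72.1%) over all positions. The exceptions were F340 and L342, whose side chains tolerated nearly every substitution in both constructs (-0.132 to 0.117 for F340 in C). In strand 2 all 6 positions were higher, with a median of 0.0532, and in strand 1 5 of 6 with 0.0972. At N326, in strand 2, 1 of 19 substitutions passed as higher, N326P (-0.888 to -0.212). The median substitution of N326 was at -0.0343 in C and -0.0334 in NC. In the carboxylate-binding loop 5 of 7 were higher (median 0.0634), around helix 1 7 of 9 (0.0225), around strand 4 7 of 9 with 1 lower (0.107), and in the stretch before helix 2 5 of 7 (0.0550). Most of these counts are near the share over all positions. Helix 2 had 3 of 7 positions higher and a median of 0.0169, below the 0.0576 over all positions. Its largest difference was at A375, with 0.247 ± 0.0207, where A375H went from -0.895 to -0.190 and the acidic A375D stayed at -0.931 and -0.858.

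All 13 positions of the list of hydrophobic core residues were higher in NC, against 72.1% of all positions, with a median difference of 0.217, from 0.0550 at A370 to 0.296 at I327. In that list 90 of 247 substitutions were below -0.5 in C and 47 in NC. At these core positions the mean over substitutions to charged residues went from -0.740 to -0.489 (n = 52) and that to glycine from -0.607 to -0.212 (n = 13). At the remaining positions the corresponding means were nearer the wild type already in C, at -0.101 for charged residues (n = 178) and -0.122 for glycine (n = 39), and -0.0440 and -0.0368 in NC.

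The list of residues that contact the peptide had 10 of 12 positions higher in NC, near the 72.1% of all positions, and a median of 0.0547, close to their 0.0576. Within it G324, I327, F325 and L323 differed most. L323, the leucine of GLGF, went from -0.161 to -0.0339, with L323R from -0.790 to -0.172. G322, the first glycine of GLGF, went from -0.113 to -0.0498, and 1 of its 19 substitutions passed as higher. The call at G322 ended with errors multiplied by 2. S339, whose side chain faces the groove from the third strand, went from -0.142 to -0.0279. H372, the helix 2 histidine that contacts the residue 2 places before the ligand's end, was at -0.00118 in C and -0.00962 in NC and did not pass. A376, in the same helix, went from -0.0573 to -0.0280, a call that ended with widened errors, and A376P alone fell outside the range of the others, with -0.772 in C and -0.118 in NC. A376P was the only substitution of A376 that passed as higher, and by the median the difference at A376 was -0.00488. G330, a second-strand residue known for its part in ligand specificity, went from -0.102 to -0.0298, with 13 of 19 substitutions higher.

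Of the residues outside the groove, R312, the first residue of the block, went from -0.234 to -0.103 (18 of 19 substitutions higher), and R312W, its lowest, from -0.853 to -0.463. A347, in helix 1, went from -0.103 to -0.0374. R368 stood apart because 18 of its 19 substitutions scored above the wild type in both constructs, with position means of 0.138 in C and 0.1502 in NC. Only R368P was below, at -0.521 in C, and it rose to -0.00672, a difference of 0.514 ± 0.0262. The position mean of R368 was -0.0670 in PDZ3 alone and 0.00912 with N alone.

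Lower scores in NC were few. R354 was the only position that passed as lower, with -0.0125 in C and -0.0325 in NC, a difference of -0.0200 ± 0.00638 (p = 0.00270, adjusted over n = 61 positions). That value rested on R354P, which went from -0.918 to -1.33 (difference -0.408 ± 0.0559, p = 1.60e-12, adjusted over n = 1149 substitutions), and without it the difference at R354 was 0.00157. The other substitutions of R354 lay between R354H (-0.0221 in C and -0.0343 in NC) and R354M (0.0922 and 0.103). Leaving out a substitution was tried at R354 only, not at positions called higher such as N326 and A376. F340, H372, E373, E334 and Q374, the next lowest positions, differed by between -0.0112 and -0.00440, and none passed.

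The 14 single substitutions that passed as lower fell into separate ranges of the score. 5 of them were below -0.5 in C and ended lower still: beside R354P these were V362P (-0.943 to -1.14), Q358P (-1.10 to -1.26), I359K (-1.01 to -1.13) and V362R (-1.03 to -1.15). A score below -1 lies past the median nonsense variant, and on the unscaled score I359K, Q358P and V362R had differences of the opposite sign (0.0241, 0.000995 and 0.0324) that did not pass. 8 others lay above the wild type in C and none was called above it in NC: Q374H went from 0.313 to 0.0317, Q374K from 0.250 to 0.0279, E352D from 0.224 to 0.00524, F340Y from 0.117 to -0.0828 and G329C from 0.0724 to -0.0362. In PDZ3 alone, Q374H, Q374K and E352D scored 0.0356, 0.0423 and 0.0333, near their values in NC. G329C scored -0.0575 there, also near its value in NC, whereas F340Y scored 0.417, above its values in both C and NC. The remaining 1, I314T, went from -0.0444 to -0.0913.

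Double substitutions showed the same shift from a lower starting point. Their mean went from -0.560 to -0.340 and their median from -0.503 to -0.169, and the share below -0.5 from 50.2% to 29.0%. Tested across all 42567 doubles, 7499 were higher in NC (17.6%) and 28 lower (0.0658%). The count of higher doubles depended on the size of the errors. It was 524 with all errors multiplied by 2, and 4 once they were widened by the spread of the nonsense variants. Among the 24313 doubles with the smaller errors, under 0.2 of the score in both constructs, the share below -0.5 went from 32.7% to 13.6%.

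The largest rises paired a harmful change with a mild one. L353S/R354Y went from -1.26 to -0.0249, a difference of 1.24 ± 0.145, where L353S alone went from -0.697 to -0.0414 and R354Y stayed near the wild type. N326P/F340L went from -1.21 to -0.142, with N326P alone at -0.888 in C and -0.212 in NC. R318L/L323K (-1.02 to 0.0558) and T321K/L353G (-1.02 to 0.0431) were of the same kind. S350V/L353N went from -1.13 to -0.0552, although L353N alone was still at -0.519 in NC. V365G/L367H differed from all of these: it went from -1.16 to -0.0641, although its singles scored -0.0807 and -0.0994 in C. The largest falls included L353A/R354P (-0.665 to -1.19) and L353V/R354P (-0.629 to -1.12). Over the 89 doubles that held R354P, the mean went from -0.903 to -0.999 and 57 of them scored lower in NC, and 3 of the 28 doubles called lower held it. R312T/L353A (-0.456 to -0.972), D366G/L367G (-0.615 to -1.07), R318C/T321K (0.223 to -0.215) and I327T/A376G (0.152 to -0.258) made up the rest of the 6 largest falls. All 6 named falls lost their call with errors multiplied by 2, and all 6 named rises with widened errors.

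Pairs of mild substitutions also scored lower in C than in NC. In 11098 doubles both singles lay within 0.1 of the wild type in C and also in NC. These pairs had a median of -0.122 in C and -0.0458 in NC, against medians of -0.0450 and -0.0180 for the sum of their singles. 23.3% of them were below -0.25 in C (2581) and 6.69% in NC (742), and 7.17% and 1.62% were below -0.5. The errors of doubles were larger in C than in NC, as given above, and their part in the difference between the shares was not tested. Pairs with a mild substitution at L360 had a mean of -0.420 in C and -0.0733 in NC (n = 88), at Q358 -0.385 and -0.0867 (n = 143) and at A370 -0.328 and -0.0738 (n = 163). At A347 the means were -0.309 and -0.0835. At L360, 32 of the 88 pairs were below -0.5 in C and 1 in NC.

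Against the sum of their singles, 33.4% of all 42452 doubles with both singles measured fell more than 0.2 below it in C and 27.2% in NC, and 11.0% and 6.01% lay more than 0.2 above it. Tests of the change in this deviation called 1627 doubles higher in NC (3.83%) and 1741 lower (4.1%). Where the sum was above -1 in both constructs, 1570 were higher and 529 lower, of 34572, and for the pairs of mild substitutions 348 and 6.

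Averaged over the doubles that hold a given position, I341 (-0.672 to -0.277, n = 2008), G335 (-0.774 to -0.380, n = 1244) and A347 (-0.660 to -0.316, n = 1895) differed most, and F340 (-0.0994 to -0.0425, n = 1035) least. A347 stood 27th of the 61 positions by its single substitutions and 3rd by its doubles. Between both rankings of the 61 positions Pearson's r was 0.670 and Spearman's rho 0.684, given as a description since the pairs share the singles' constructs and wild types.

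The same N extension was also measured on the domain without C. Over 1128 single substitutions present in all 4 constructs, adding N to C gave a mean difference of 0.0924 ± 0.00443 and adding N to the bare domain 0.127 ± 0.0179. The difference between these, -0.0347 ± 0.0185, did not pass (two-sided normal test, n = 1128 substitutions, p = 0.0602). By position, 29 of 60 differed as lower with C present (48.3%) and 7 as higher (11.7%). The count of higher positions depended on the scale, with 15 when the late nonsense variants set it and 16 when the lowest 5% of missense substitutions did. The lower group was led by A347, where N added 0.0658 with C and 0.329 without it. G345 (0.0713 and 0.326), V315 (0.0585 and 0.310), G322 (0.0634 and 0.298), G344 (0.0754 and 0.289) and D366 (0.0945 and 0.255) followed. These 6 positions had means between -0.148 and -0.0674 in C and between -0.646 and -0.383 in PDZ3 alone. In C they thus stood nearer the wild type than the rise that N gave without C. The part of this limit in the differences was not tested.

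N added more in the presence of C at G324 (0.335 and 0.129, a difference of 0.206 ± 0.0530), I327 (0.296 and 0.0916), F325 (0.229 and 0.0268), L367 (0.235 and 0.109), D357 (0.190 and 0.0980) and V328 (0.0373 and 0.000223). The first 5 of these lay between -1.03 and -0.554 in PDZ3 alone and were still at -0.905 to -0.463 with N alone. G335 was equal in both settings, with 0.343 and 0.342. The interval of ± 0.0463 (SE) around their difference of 0.000669 is wide beside many of the differences reported here. At most positions the errors in PDZ3 and N were the larger part of this contrast. The error of the median nonsense variant, which sets the scale for all positions together, was 0.0440 in PDZ3 and 0.0342 in N on the deposited score. It was 0.0179 in C and 0.0223 in NC. The late nonsense variants of PDZ3 and N spread by factors of 4.01 and 4.18 beyond their errors, which enters only the widened errors. Nonsense variants before G324 had scaled medians of -0.519 in PDZ3 and -0.541 in N, further from -1 than in C and NC. With errors multiplied by 2, 16 positions were lower and 1 was higher, I327, and the calls at G324, F325, L367, D357 and V328 ended. On growth rates the difference at D357 was -3.6e-05. Across the 60 positions the differences correlated with a Pearson's r of 0.434 and a Spearman's rho of 0.628, as a description.

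**Figure D4:**
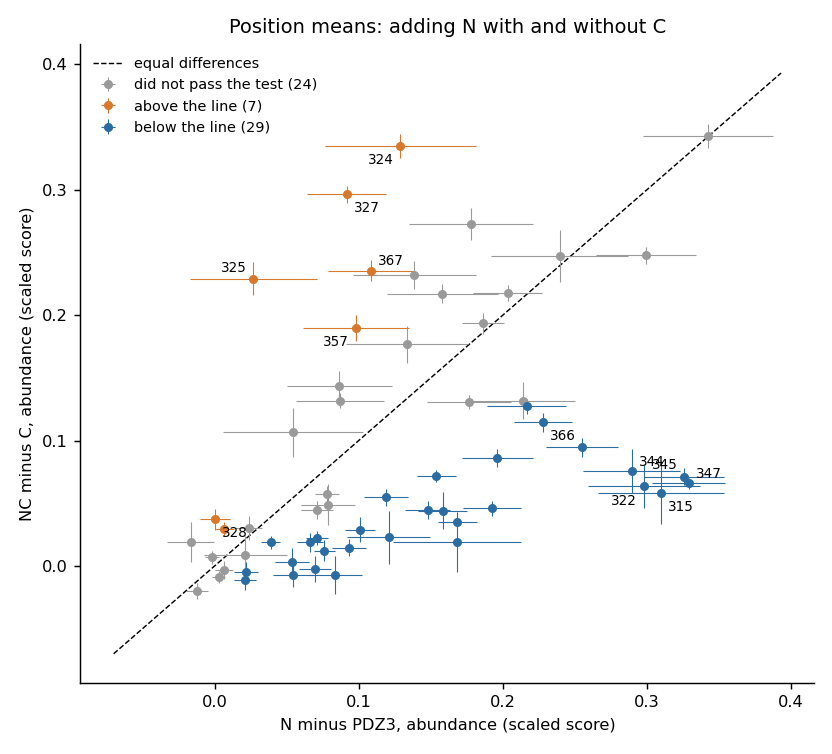
Mean difference at each of 60 positions when N was added to the bare domain (horizontal axis) and to the domain with C (vertical axis), in scaled abundance score with standard errors. Numbers give the residue of the 6 most extreme positions on each side that passed the test. G324, I327 and F325 lie above the line of equal differences, and A347, G345 and V315 far below it.

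The binding assay reads the complex of the domain with its ligand. On the scaled score, adding N to C had a mean effect there of a like size. The means of the assays were compared on that scale only. The growth range it divides by, given below for binding, was 0.138 in C and 0.136 in NC in abundance. Over 1145 single substitutions the mean difference was 0.0804 ± 0.00524 in binding and 0.0917 ± 0.00450 in abundance, and the difference between the assays, -0.0113 ± 0.00690, did not pass (two-sided normal test, n = 1145 substitutions, p = 0.103). By position, 19 of 60 were lower in binding (31.7%) and 16 higher (26.7%). This split depended on the scale: on growth rates relative to the wild type 7 were lower and 34 higher, as the growth range from wild type to nonsense was 0.188 in C and 0.149 in NC in binding.

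I327 showed the widest gap between the assays. Its mean abundance score went from -0.369 to -0.0729 and its mean binding score only from -0.817 to -0.771, a difference of -0.251 ± 0.0121 between the assays' effects. On growth rates this gap no longer passed. I327K reached -0.207 in abundance but stood at -1.01 and -1.003 in binding. I327T, which had the abundance of the wild type in both constructs (-0.000141 and -0.00252), scored -0.957 and -0.977 in binding. At G335 binding was already near the wild type in C (-0.113) and reached 0.00562, so that the rise was 0.119 in binding and 0.343 in abundance. G324 (0.185 and 0.335), I338 (0.139 and 0.273) and I341 (0.173 and 0.248) also differed less in binding on the scaled score, but more on growth rates, where their sign turned. G322 differed by -0.00976 in binding and 0.0634 in abundance, a call that ended with errors multiplied by 2.

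At the opposite end stood positions with near wild-type abundance and low binding. H372 differed by 0.115 in binding (-0.767 to -0.653) and -0.00844 in abundance. A376 differed by 0.154 (-0.432 to -0.278) and 0.0292, G330 by 0.169 (-0.628 to -0.458) and 0.0720, G329 by 0.147 (-0.907 to -0.759) and 0.0668, and V328 by 0.115 (-0.509 to -0.395) and 0.0373, of which the call at V328 ended with widened errors. A347 differed by 0.137 in binding (-0.488 to -0.351) and 0.0658 in abundance. These 6 positions were picked as the most extreme of this contrast, and 5 of them lie in the second strand or second helix. Other residues of that strand and helix varied. E373 (0.0680) was also higher in binding, I327 (-0.251) and S371 (-0.0434) were lower, and N326, E331, Q374, A375 and I377 did not pass. Across the 60 positions the differences in both assays correlated with a Pearson's r of 0.702 and a Spearman's rho of 0.733, as a description.

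**Figure D5:**
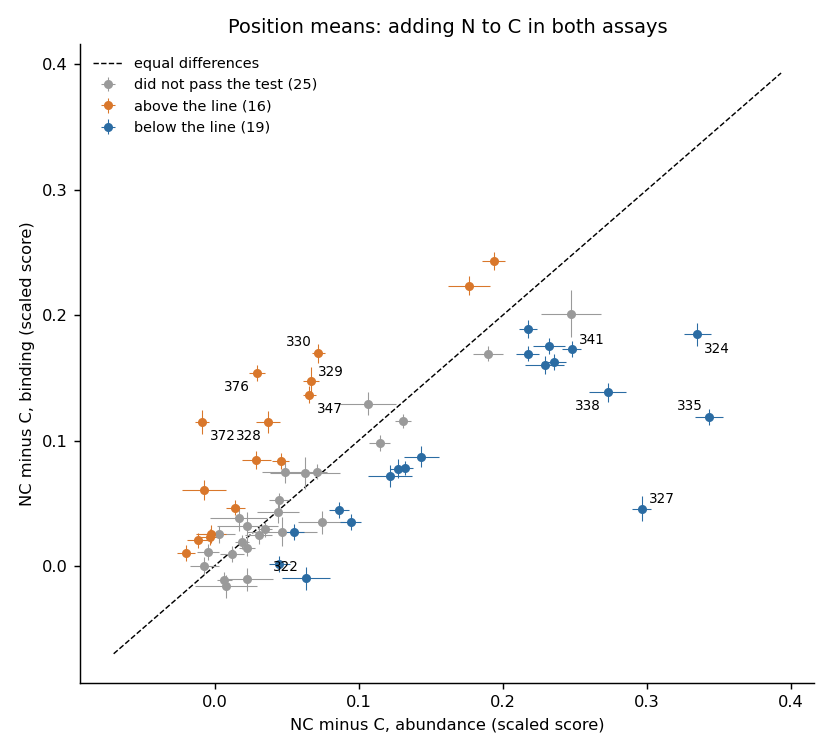
Mean difference NC minus C at each of 60 positions in abundance (horizontal axis) and in binding (vertical axis), in scaled score with standard errors. Numbers give the residue of the 6 most extreme positions on each side that passed the test. I327 lies lowest beside its abundance difference (0.0458 in binding, 0.296 in abundance), and H372 and A376 lie above the line.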

How the data were processed

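The deposited table gave, per variant, construct and assay, a fitness score with its standard error. The deposited growth rate followed that score along a straight line. The authors had merged the cultures. Per the submitters' processing notes, cutadapt and FastQC were used, without versions. The scoring tool and log base were not given in the sources used here; variants were matched without the last 2 letters of the protein sequence, which tell the constructs apart. The 8 placeholder entries of the wild type were left out. As NC had no other wild-type entry, its score and error were taken from its growth rate.

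Scores were scaled as score minus wild type, over the distance from wild type to median nonsense variant. The test was a two-sided normal test of a difference over its error (variants, wild type and scale), with Benjamini-Hochberg adjustment over all features and a threshold of 0.05. It rests on the authors' errors, into which the 3 biological replicates named by the series were merged. Tested on simulated data for the 1149 single substitutions, the procedure recovered 184 of 200 shifts of 0.2 (92%) with 4 false calls. The simulated noise was drawn from the authors' errors alone. The count of false calls therefore does not cover the wider spread seen among the nonsense variants. Python 3.11.15, numpy 2.4.6, scipy 1.17.1 and pandas 2.3.3 were used.

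Named positions were the 12 largest differences, the 6 lowest and a list of known residues. Named substitutions were the 10 largest rises and falls with an error under 0.15, and the extremes of each named position; 6 doubles and 6 positions each way were named in the other contrasts. Further substitutions of named positions, D357, G364, S320R, I314T, those under other observations and the rankings of pairs were picked after their values were seen. Members, lists and rules were chosen with earlier results of these data known.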

Additional observations from a re-analysis of the deposited data

Results flagged for a closer look

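The effect of N on abundance differed, by the test of the difference itself, between the domain with C and the domain without it. N added less with C at A347 (-0.263), G345 (-0.254), V315 (-0.251), G322 (-0.234), G344 (-0.214) and D366 (-0.160). N added more with C at G324 (0.206), I327 (0.205), F325 (0.202), L367 (0.127), D357 (0.0920) and V328 (0.0371). These values are differences of scaled scores, and the widened errors ended the calls at V315, G322, G344, D357 and V328.

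The effect of adding N to C also differed between the assays by the same kind of test. It was smaller in binding than in abundance at I327 (-0.251), G335 (-0.224), G324 (-0.150), I338 (-0.134), I341 (-0.0748) and G322 (-0.0732). It was larger in binding at A376 (0.125), H372 (0.123), G330 (0.0975), G329 (0.0806), V328 (0.0773) and A347 (0.0708). Errors multiplied by 2 ended the call at G322, and widened errors those at G322 and V328. Only the 6 most extreme positions on each side are given for both contrasts.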

How the results depend on the processing

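No paired analysis was possible because the table holds merged values, with none per culture; leaving out single cultures was not possible for the same reason. The direction of the mean difference over single substitutions held under each of its alternatives: on the scaled score it lay between 0.0331 (median) and 0.0925, on the unscaled score it was 0.126 and in growth rate 0.0128. Of the 97 alternative values of main counts and means, 70 stayed within the limits set and 27 moved. For single features, 745 kept direction and side of the threshold, 62 fell short of it and 16 turned sign; the causes were not tested.

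Counts that moved were these. With errors multiplied by 2, 3 singles, 0 positions and 0 doubles were lower in NC and 524 doubles higher; the contrast of N with and without C had 1 position higher and 16 lower, and that of binding and abundance 6 and 10. With errors widened to the nonsense spread, 214 singles were higher and 1 lower, 0 positions lower, 4 doubles higher and 0 lower; the contrasts had 4 and 9, and 5 and 9. The median synonymous variant as reference gave 28 lower singles and 29 higher positions. Late nonsense variants or the lowest 5% of missense substitutions as scale gave 15 and 16 positions where N added more with C. The unscaled score gave 18 lower doubles. Growth rates gave 34 positions higher and 7 lower in binding. No position was lower by the median, by the weighted mean or without R354P, an alternative added after seeing the data.

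Signs that turned on the unscaled score were I359K (0.0241), Q358P (0.000995), V362R (0.0324), R368 (-0.00826) and E373 (5.4e-05). On growth rates they were D357 with against without C (-3.6e-05), and G324 (0.0106), I338 (0.00477) and I341 (0.00877) in binding. R368 turned with synonymous reference (-0.0121) and median (-0.0122), as did E373 (0.00457), Q374 (0.0167) and A376 (-0.00488) by the median, Q374 by the weighted mean (0.0249) and R354 without R354P (0.00157).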

Other observations

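9 single substitutions were below the wild type in C and above it in NC, and the difference passed for each. 3 were at L367: L367S went from -0.295 to 0.0864, L367A from -0.104 to 0.117 and L367H from -0.0994 to 0.105. L353T (-0.202 to 0.0136) and L353P (-0.0993 to 0.0391) were at a core leucine, where proline scored better than 12 other residues in C. V315G went from -0.181 to 0.136 with an error of 0.0871 on the difference. A375L, I359M and R312H were the others.

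The highest score in NC belonged to L360M, at 0.584 with an error of 0.137. It was at 0.116 in C, 0.156 in PDZ3 alone and -0.145 with N alone, and its difference of 0.468 ± 0.167 exceeded the limit on errors for named substitutions. At R368, R368E (0.206 and 0.190) and R368K (0.202 and 0.184) were both above the wild type, although one reverses the charge and the other keeps it. R313, next to the start of the block, had 1 substitution called below the wild type in NC, R313W at -0.124.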
